A study of Mus musculus with 10 samples.

Results

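The 7 chemokine genes described here are Cxcl1, Cxcl2, Cxcl9, Cxcl10, Cxcl12, Cxcl16 and Cx3cl1, the CXC and CX3C ligands chosen by name from the 28808 genes in the count tables. For each of them it was asked which cell classes of the kidney cortex supplied its transcripts on each day after injury. Single-cell suspensions of cortex from mice aged 4 weeks had been sequenced by Drop-seq, a droplet method that tags the RNA of each cell with a bead barcode, in a study of acute kidney injury. The 10 libraries were 1 of normal kidney (the control), 1 each of days 1, 2 and 4 after injury, and 2 each of days 7, 11 and 14. All were labelled by day only, without the kind of injury, strain, sex, genotype or animal, so p-values below measure the spread between libraries that may share animals. Days 1, 2 and 4 and the control have a single library and no replicate check.

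Chemokines are small secreted or membrane-bound proteins that direct the movement of leukocytes through receptors on their surface. Cxcl1 and Cxcl2 act on Cxcr2 and attract neutrophils, while Cxcl9 and Cxcl10 are interferon-induced ligands of Cxcr3 on activated T and NK cells. Cxcl12 binds Cxcr4 and Ackr3 and is made in many tissues at rest. Cxcl16 and Cx3cl1 are made as transmembrane proteins with a chemokine domain on a mucin stalk, bind Cxcr6 and Cx3cr1 respectively, and are released as soluble ligands by the proteases Adam10 and Adam17.

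Of 64803 barcodes, 52797 passed the filters, 3568 to 6941 per library, with a median of 1244 to 2661.5 transcript counts (unique molecular identifiers, UMIs) per cell. Each cell was assigned to a class from raw UMIs of marker genes, none of them a chemokine, and 86.4% to 98.6% of the cells of a library received one. Tubule cells numbered 1781 to 6430 per library, endothelial cells 122 to 359 and stromal cells 16 to 124. Mononuclear phagocytes (macrophages, monocytes and dendritic cells) numbered 59 in the control, 152, 318 and 908 on days 1, 2 and 4, 1110 and 1639 on day 7, 120 and 77 on day 11, with 41 and 53 on day 14. Neutrophils reached 10 cells on day 1 and 34 on day 2. Lyz2, a myeloid lysozyme that gated nothing, was at 1122 to 22511 UMIs per 1000000 UMIs of the class (CPM) in phagocytes. In tubule cells it was at 0.322 to 487.6. Such values are not given here for the other class names. At most 4 cell barcodes were shared by a pair of libraries.

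**Figure D1:**
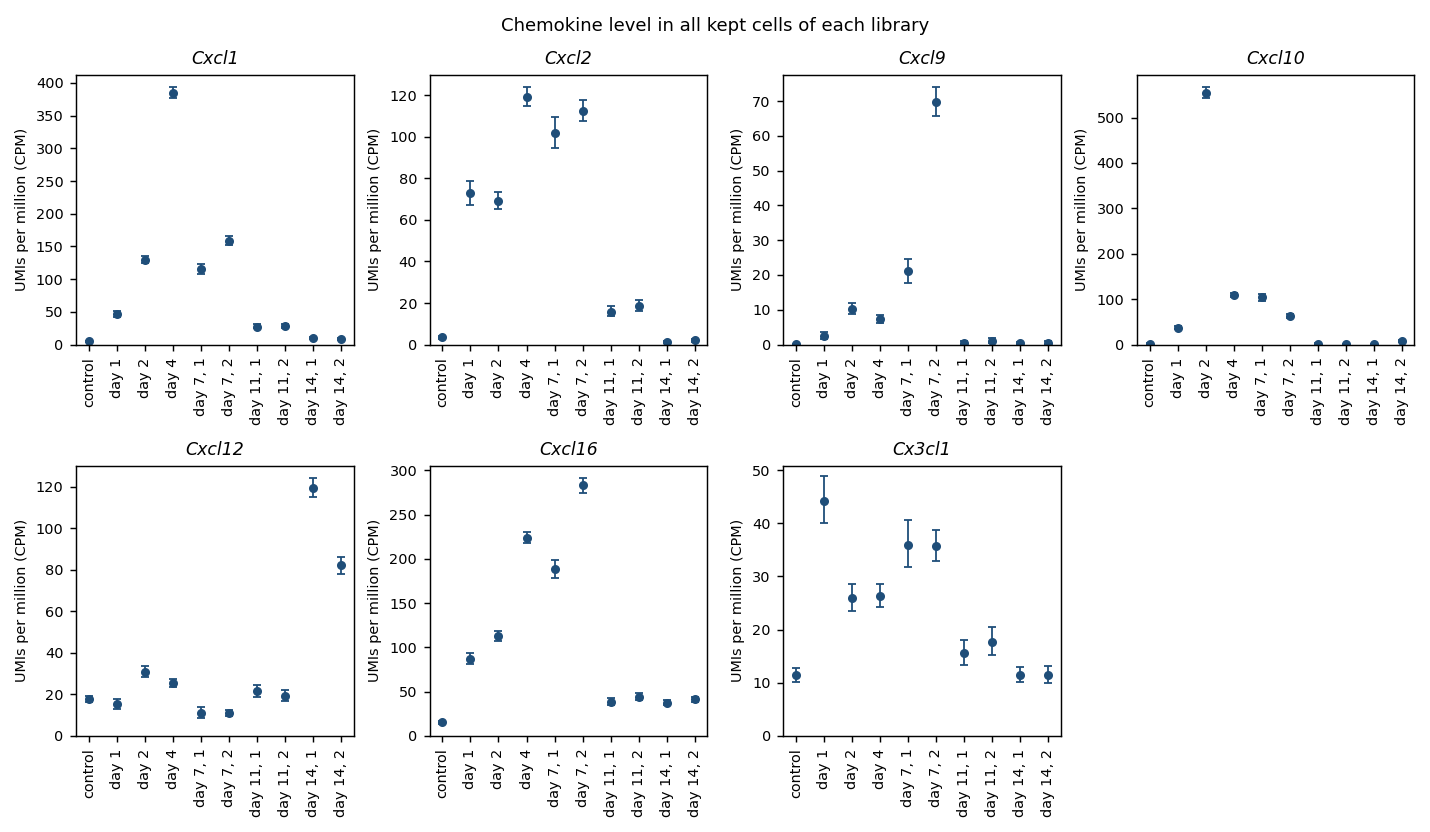
Level of each chemokine in all kept cells (CPM, linear axis from 0) against the library; each point is 1 library and its bar the exact 95% Poisson interval, which covers counting error only. Cxcl1 and Cxcl2 are highest on day 4, Cxcl10 on day 2, Cxcl9 and Cxcl16 in the second day 7 library and Cxcl12 on day 14, while Cx3cl1 stays between 11.4 and 44.3.

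Summed over all kept cells, 6 of the 7 chemokines were higher on day 7 than in the control and Cxcl12 was lower, all 7 past the threshold (Benjamini-Hochberg adjusted p under 0.05 in the quasi-likelihood test of edgeR). Of all 17495 genes tested, 36.7% passed. Between days 7 and 11, Cxcl1, Cxcl2, Cxcl9, Cxcl10 and Cxcl16 fell and Cxcl12 rose, 6 of 7 past the threshold, against 44.7% of all genes. On day 14 Cxcl1, Cxcl12 and Cxcl16 were higher than in the control, 3 of 7, against 8.43% of all genes. Of these, the call of Cxcl1 was kept in 9 of 13 alternatives (adjusted p 0.0027 to 0.131), and was lost with the first or the second day 14 library left out. Cxcl16 lost it without the second (adjusted p = 0.054, the highest of 13, the lowest being 4.4e-06), so that only Cxcl12 passed there. Such sums over all cells move with both the number of cells of each class and their RNA per cell, and these cannot be told apart in them, so the classes are given 1 by 1 below. The make-up within a class changed too. Proximal cells were 3749 of 5403 tubule cells in the control, and 422 of 1781 and 642 of 2369 on day 7. On day 14 they were 5157 of 6430 and 4598 of 5819. Phagocytes without a UMI of a complement C1q gene were 121 of 152 on day 1, and 153 of 1110 and 255 of 1639 on day 7. Changes of a whole class below carry such shifts as well. In tubule cells the same comparisons passed for all 7 genes on day 7 (34.8% of 16278 genes), all 7 from day 7 to day 11 (44.4%), and again Cxcl1, Cxcl12 and Cxcl16 on day 14 (8.01%).

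Levels in CPM are relative to all UMIs of a class, whereas the log2 changes use TMM scaling, which sets the typical gene near no change (median over all genes 0.04 for tubule cells on day 7). Scaled by UMI totals alone, an alternative added after the data were seen, that median was 0.81 on day 7 against the control and -0.85 from day 7 to day 11 in tubule cells. The share of the passing genes that were higher moved with it from 47.7% to 87.3% and from 52.1% to 15.9%. On that scale the 7 chemokines kept their direction and passed in both tubule comparisons: on day 7 the log2 change of Cxcl1 was 6.28, of Cxcl16 3.97, of Cx3cl1 2.09 and of Cxcl12 -1.27. Changes given below are relative to the typical gene.

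**Figure D2:**
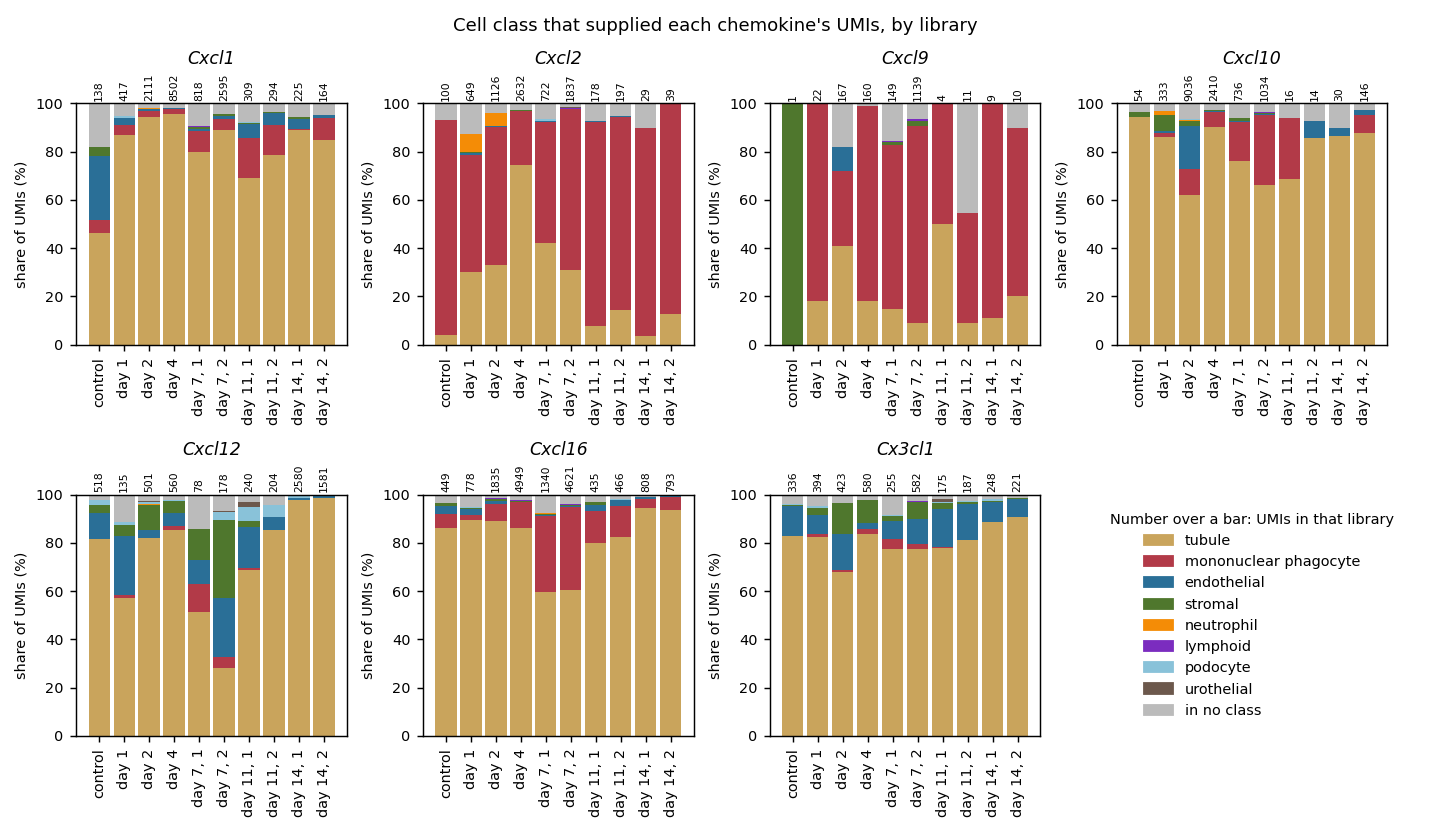
Share of each chemokine's UMIs in the kept cells of a library (percent, from 0) that came from each cell class, as 1 stacked bar per library with the number of UMIs above it; grey is cells in no class. Tubule cells supplied most Cxcl1 on every day after injury. Phagocytes supplied the largest share of Cxcl2 in every library except that of day 4, where tubule cells did. They also supplied the largest share of Cxcl9 on days 1, 4, 7 and 14.

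Cxcl1 and Cxcl2 are neighbouring genes on chromosome 5 (GRCm38, GENCODE annotation), at chr5:90891241-90893115 and chr5:90903871-90905938, both on the plus strand. Cxcl10 lies on the same chromosome on the minus strand at chr5:92346638-92348889, next to Cxcl9 at chr5:92321347-92328079. Cxcl12 lies at chr6:117168535-117181367. The stretch just upstream of 4 of these genes is shown, for the 3 genes with a motif match and for Cxcl12, the 1 chemokine that was lower in tubule cells on day 7. Cxcl9, Cxcl16 and Cx3cl1 also rose there on day 7, and of these Cxcl9 and Cx3cl1 had a window but no match. The sequences come from RefSeq promoter windows on GRCm38.p6, which held 6 of the 7 genes, and are printed only up to the annotated gene start: chr5:90890995-90891240 for Cxcl1, chr5:90903649-90903870 for Cxcl2, chr5:92348890-92349139 on the minus strand for Cxcl10 and chr6:117168285-117168534 for Cxcl12. Capitals mark matches on either strand to the NF-kB consensus or to the interferon-stimulated response element core, GAAA followed after any 2 bases by GAAA.
Cxcl1: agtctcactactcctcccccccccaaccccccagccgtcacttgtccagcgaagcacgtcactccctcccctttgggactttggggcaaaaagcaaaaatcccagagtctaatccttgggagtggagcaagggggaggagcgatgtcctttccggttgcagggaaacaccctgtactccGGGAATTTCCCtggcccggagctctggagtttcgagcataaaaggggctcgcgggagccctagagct
Cxcl2: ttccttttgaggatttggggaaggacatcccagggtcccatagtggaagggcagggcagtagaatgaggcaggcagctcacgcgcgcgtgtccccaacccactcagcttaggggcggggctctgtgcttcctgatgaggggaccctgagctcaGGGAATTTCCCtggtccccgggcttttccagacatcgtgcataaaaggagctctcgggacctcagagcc
Cxcl10: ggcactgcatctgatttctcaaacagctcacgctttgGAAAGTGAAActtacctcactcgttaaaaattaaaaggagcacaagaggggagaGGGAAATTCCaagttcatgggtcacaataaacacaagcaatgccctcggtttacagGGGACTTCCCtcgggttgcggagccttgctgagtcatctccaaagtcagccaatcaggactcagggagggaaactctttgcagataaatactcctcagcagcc
Cxcl12: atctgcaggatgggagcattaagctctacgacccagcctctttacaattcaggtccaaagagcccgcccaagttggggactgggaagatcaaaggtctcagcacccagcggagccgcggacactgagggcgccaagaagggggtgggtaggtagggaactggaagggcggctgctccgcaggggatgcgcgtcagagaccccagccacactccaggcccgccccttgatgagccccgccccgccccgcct

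The windows of Cxcl1 and Cxcl2 held the same stretch, GGGAATTTCCC, which counts as 2 overlapping NF-kB matches. Cxcl10 had 1 response element core, GAAAGTGAAA, and 2 NF-kB matches, GGGAAATTCC and GGGACTTCCC. No match stood in the windows of Cxcl9, Cxcl12 and Cx3cl1. Matches were searched in the 250 bases before each RefSeq start, also where fewer are printed, and 171 of these bases lie inside the annotated gene for Cx3cl1, 28 for Cxcl2 and 4 for Cxcl1. Over 32851 windows searched in the same way, 3.90% held an NF-kB match and 2.98% the response element core. These are matches of letters, not measured binding.

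Cxcl1, a neutrophil attractant, came mainly from tubule cells after injury by number of UMIs. Its level in tubule cells was 2.29 CPM in the control and 48.7, 146 and 418 on days 1, 2 and 4. It was 145 and 211 in the day 7 libraries, 21.7 and 23.8 on day 11, with 9.56 and 7.41 on day 14. Every injured library was above the control, and the 3 replicated days did not overlap. On day 7 the log2 change from the control was 5.51 (SE 0.37, edgeR adjusted p = 5.2e-06), from day 7 to day 11 it was -2.1998 (SE 0.23, adjusted p = 3.2e-05), and day 14 was still 1.97 above the control (SE 0.33, adjusted p = 0.0097).

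Tubule cells held 46.4% of all Cxcl1 UMIs in the control (exact 95% interval 37.9% to 55.1%, of 138 UMIs), where endothelial cells held 26.8% (19.6% to 35.0%). After injury the tubule share ran from 69.3% in a day 11 library (63.8% to 74.4%) to 95.5% on day 4 (95.1% to 96.0%). Of the UMIs of all genes, tubule cells held 9871912 of 11214864 in that day 11 library and 19443469 of 22076557 on day 4. Intervals here and below cover counting error only. On day 4, 30.0% of tubule cells had a Cxcl1 UMI, against 0.833% in the control. With every cell thinned to 500 UMIs these shares were 11.9% and 0.0925%. On day 2 a single cell held 260 of the 2111 Cxcl1 UMIs.

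Within the tubule, Cxcl1 was higher in proximal tubule cells than in the thick ascending limb and in principal cells in every injured library. In proximal cells it was 3.58 CPM in the control, 70.7, 216 and 523 on days 1, 2 and 4, 264 and 476 on day 7, 30.1 and 30.5 on day 11, with 11.6 and 9.65 on day 14. Tubule cells with no gated segment, which this order leaves out, held 770 on day 4 (535 cells) and 288 and 377 on day 7. Cells of the thick ascending limb reached 100.98 on day 4, and principal cells of the collecting duct 149 on that day. Day 4 was the highest day in the 3 gated segments.

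Phagocytes followed another course for Cxcl1. Their level was 74.8 CPM in the control (7 UMIs), 75.9, 52.7 and 108 on days 1, 2 and 4, 43.0 and 33.0 on day 7, 288 and 290.0 on day 11, with 19.1 and 185 on day 14. The lowest pair was that of day 7, when the tubule level was high, and the highest that of day 11. Phagocyte Cxcl1 rose from day 7 to day 11 by 3.28 on the log2 scale (SE 0.36, edgeR adjusted p = 3.2e-10), while the day 7 difference from the control did not pass (-1.28, SE 0.71, adjusted p = 0.371). The day 14 libraries stand far apart and rest on 41 and 53 cells. Per UMI, phagocyte Cxcl1 was above the tubule level in 6 of 10 libraries and below it in 4, those of days 2, 4 and 7. Averaged over the days, the difference between both classes did not pass (edgeR adjusted p = 0.324).

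Per UMI, Cxcl2, the other neutrophil attractant, was highest in leukocytes in every library, among classes of at least 20 cells. The class that supplied most of its UMIs differed between days, as given below. Phagocytes held 951 CPM in the control, 1407, 656 and 349 on days 1, 2 and 4, 213 and 350.4 on day 7, 846 and 1238 on day 11, with 477 and 418 on day 14. The 10 neutrophils of day 1 were higher still at 3503 (interval 2583 to 4644), and the 34 of day 2 were at 1570.4 (1204 to 2013). In each of the 10 libraries the phagocyte level was above the tubule level, and the class difference within libraries was 6.35 on the log2 scale (SE 0.70, edgeR adjusted p = 1.0e-10). Among the 5 chemokines tested in phagocytes on day 7, Cxcl2 was lower than in the control (-2.03, SE 0.35, adjusted p = 3.8e-05) and Cxcl9 higher, 2 of 5 against 4.67% of 5330 genes. Phagocyte Cxcl2 rose again from day 7 to day 11 by 2.2003 (SE 0.29, adjusted p = 7.7e-08). In that comparison 4 of 5 passed, Cxcl1 and Cxcl2 higher and Cxcl9 and Cxcl10 lower, against 6.12% of all genes. The call of Cxcl9 was kept in 11 of 16 alternatives (adjusted p 5.5e-07 to 0.434) and that of Cxcl10 in 9 of 16 (0.0126 to 0.689), and DESeq2 called 2 of 5.

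Tubule cells, in contrast, gained Cxcl2 after injury. Their level was 0.143 CPM in the control (4 UMIs), 26.1, 27.1 and 100.9 on days 1, 2 and 4, 67.8 and 52.1 on day 7, 1.42 and 2.88 on day 11, with 0.0478 and 0.266 on day 14. Days 1 to 7 lay above all other libraries, and day 14 lay on both sides of the control. The day 7 change was 7.85 on the log2 scale (SE 0.57, edgeR adjusted p = 7.1e-06) and that from day 7 to day 11 was -4.01 (SE 0.33, adjusted p = 8.2e-06).

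The class that supplied most Cxcl2 changed with the day. In the control, 89 of its 100 UMIs came from phagocytes (exact interval 81.2% to 94.4%). The 100 UMIs were in 24 cells, and 1 cell held 32 of them, so the control level of phagocytes rests on few cells. The phagocyte share was 48.5% on day 1 (44.6% to 52.5%). On day 2 it was 57.5% (54.6% to 60.5%), and on day 4 it was 22.4% (20.8% to 24.0%). Tubule cells supplied 74.5% on day 4 (72.8% to 76.2%). In the first day 7 library 361 of 722 UMIs were from phagocytes and 42.1% from tubule cells, and in the second 66.4% and 31.1%. On days 11 and 14 phagocytes were back at 80.2% to 87.2%. Neutrophils held 7.40% on day 1 (5.50% to 9.69%) and 5.51% on day 2 (4.25% to 7.003%).

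RNA released by phagocytes can be counted in other cells of a droplet library, so the tubule levels were set beside those of phagocyte genes. Tubule Lyz2 stood at 0.0195% to 2.61% of the phagocyte level and Tyrobp, a myeloid adaptor, at 0.0245% to 2.96%. Tubule Cxcl2 stood at 28.9% of the phagocyte level on day 4 and at 31.9% and 14.9% on day 7, above both genes in those libraries. On day 1 it stood at 1.85%, beside 0.970% for Lyz2 and 1.22% for Tyrobp, and on day 2 at 4.13%, beside 0.840% and 0.801%. In the control and on days 11 and 14 it was at 0.01003% to 0.233%, beside Lyz2 at 0.0195% to 0.151% and Tyrobp at 0.0245% to 0.352%. On day 11 it was at 0.168% and 0.233%, above Lyz2 and below Tyrobp in both libraries. Tubule Cxcl1 was at 277% of the phagocyte level on day 2, 387% on day 4 and 338% and 639.6% on day 7, and at 64.1% on day 1. Tubule Cxcl9 was at 9.46% on day 2, 1.95% on day 4 and 8.25% and 3.46% on day 7, above both genes in those libraries, and at 0.669% on day 1, below both.

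The changes of tubule cells and phagocytes were compared directly in a fit with both classes, added after the values had been seen. On day 7 against the control, 3 of 5 chemokines differed (10.8% of 5330 genes): the change in tubule cells was above that in phagocytes for Cxcl1, Cxcl2 and Cxcl16. In phagocytes themselves none of the 3 rose on day 7, and Cxcl2 fell. From day 7 to day 11 the same 3 differed the other way (12.6%, 670 genes, but 141 or 173 genes without the first or the second day 11 library). On day 14 none of 5 passed by edgeR's quasi-likelihood test, and none had an unadjusted p under 0.05, against 0.0375% of all genes passing; no other tool was run for this comparison.

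**Figure D3:**
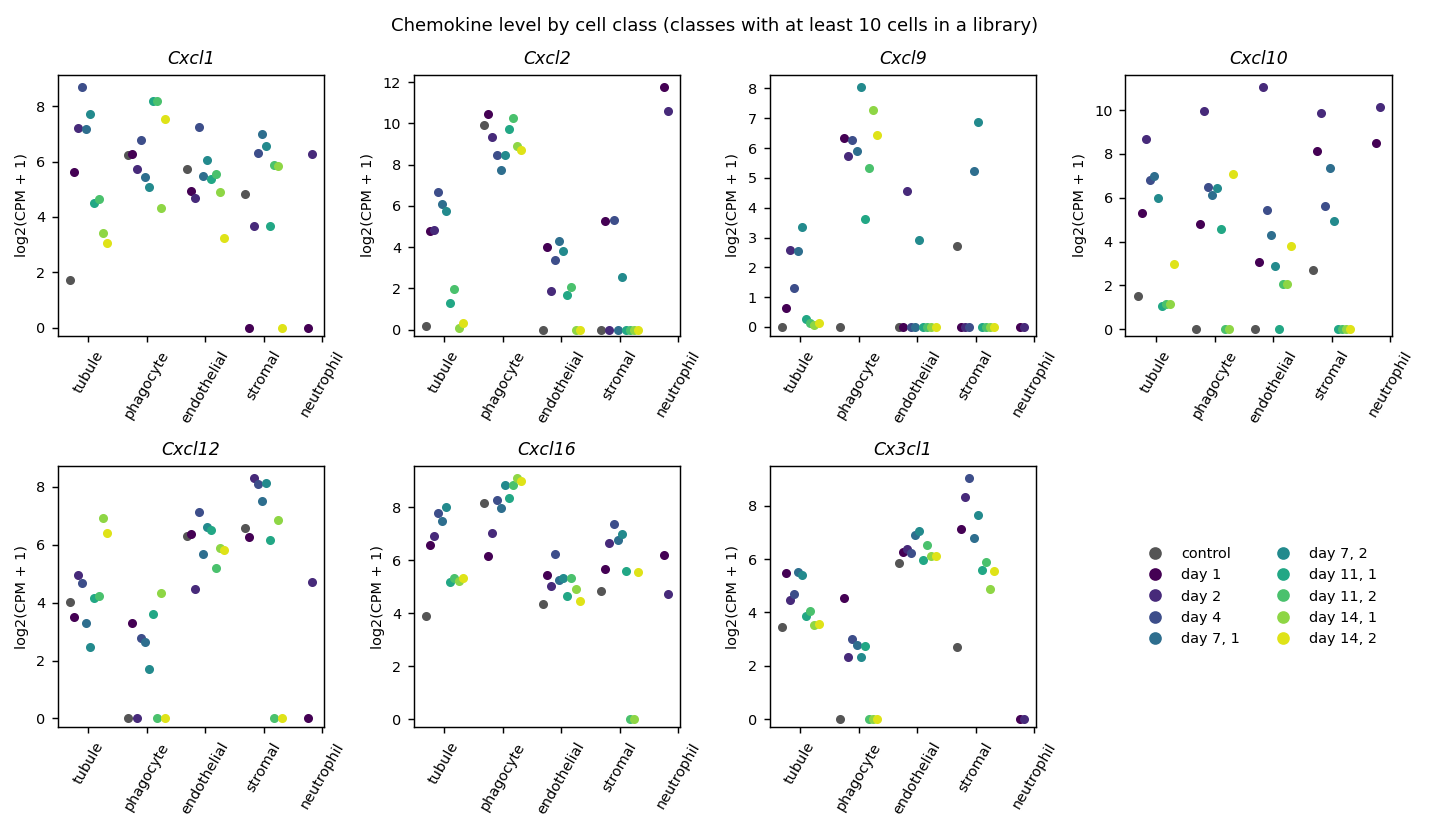
Level of each chemokine, as log2(CPM + 1), in tubule cells, mononuclear phagocytes, endothelial cells, stromal cells and neutrophils; each point is 1 library with at least 10 cells of the class, coloured by library. Phagocyte Cxcl1 and Cxcl2 are lower on day 7 than on day 11, and tubule Cxcl1 and Cxcl2 are higher.

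Cxcl9, an interferon-induced ligand of Cxcr3, was nearly absent from normal cortex, with 1 UMI in all control cells. In phagocytes it was 0 CPM in the control (0 UMIs in 59 cells, which allows up to 32.1), then 80.4, 52.7 and 76.5 on days 1, 2 and 4, 59.5 and 267 on day 7, 11.3 and 39.2 on day 11, with 153 and 86.1 on day 14. The 2 day 7 libraries stand far apart, and the day 14 levels rest on 8 and 7 UMIs. Phagocytes were above tubule cells in 9 of 10 libraries (log2 difference 5.59, SE 0.46, edgeR adjusted p = 4.2e-14). They held 67.8% of all Cxcl9 UMIs in the first day 7 library (59.7% to 75.2%) and 81.6% in the second (79.2% to 83.8%). On day 2, tubule cells held 40.7% (33.2% to 48.6%) and phagocytes 31.1% (24.2% to 38.8%).

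Over both day 7 libraries phagocyte Cxcl9 was at least 6.21-fold above the control, computed against 3 counts over the control group, but in the first library alone at least 1.86-fold and in the second at least 8.33-fold. It passed the test on day 7 (adjusted p = 0.0131), but without the second day 7 library it did not (adjusted p = 0.146). Over its 14 alternatives the adjusted p ran from 4.1e-05 to 0.157, and 11 passed. Tubule Cxcl9 was 0 in the control and 4.91 and 9.22 CPM on day 7, at least 45.7-fold above it in the first library and at least 85.8-fold in the second. It fell by 4.74 on the log2 scale from day 7 to day 11 (SE 0.65, edgeR adjusted p = 0.0002). Stromal cells held 36.3 and 118 CPM on day 7 and 0 in all other injured libraries, against 5.52 in the control (1 UMI). Each 0 allows up to 3 counts, over 17310 stromal UMIs in the second day 11 library to 168218 on day 2. In the smaller of these sums a level like that of the first day 7 library (46 cells) is therefore not excluded.

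Cxcl10, also interferon-induced and a ligand of Cxcr3, was highest on day 2 in tubule cells, endothelial cells, stromal cells and phagocytes. In tubule cells it was 1.83 CPM in the control, 38.5, 409.8 and 112 on days 1, 2 and 4, then 125 and 62.5 on day 7, 1.11 and 1.24 on day 11, with 1.24 and 6.82 on day 14. In endothelial cells it was 0 in the control (0 UMIs in 317 cells, which allows up to 4.21), 7.43, 2145 and 42.1 on days 1, 2 and 4, and at most 18.7 in later libraries. In phagocytes it was 0 in the control, 26.8, 991 and 88.4 on days 1, 2 and 4, 69.5 and 86.7 on day 7, 22.6 and 0 on day 11, with 0 and 135 on day 14. The single day 2 library was thus the highest in all 3 classes, at least 509.9-fold above the control in endothelial cells and at least 30.9-fold in phagocytes. No replicate of day 2 exists to test this.

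On day 2 a Cxcl10 UMI was found in 60.4% of endothelial cells (55.2% to 65.5%), 47.2% of phagocytes (41.6% to 52.8%) and 32.8% of tubule cells (31.1% to 34.5%). With cells thinned to 500 UMIs the shares were 40.4%, 25.2% and 13.3%, in the same order. Stromal cells were at 933 CPM and the 34 neutrophils at 1139.8. Because tubule cells were far more numerous, they still held 61.9% of the UMIs (60.9% to 62.9%), endothelial cells 18.1% (17.3% to 18.9%) and phagocytes 10.8% (10.2% to 11.5%).

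On day 7 tubule Cxcl10 was above the control by 4.87 on the log2 scale (SE 0.78, edgeR adjusted p = 0.00078), and it fell by 5.50 from day 7 to day 11 (SE 0.68, adjusted p = 0.0001). In phagocytes the day 7 change did not pass (adjusted p = 0.0599), and in 6 of 14 alternatives it passed, with adjusted p from 0.0285 to 0.521. Of the 7 chemokines, 5 were tested in endothelial cells, and none was past the threshold on day 7 (3.55% of 8124 genes), from day 7 to day 11 (8.73%) or on day 14 (1.66%), with 0 of 5 each time by edgeR's quasi-likelihood test and 0 by DESeq2. At an unadjusted p under 0.05 there were 2, 0 and 2. In phagocytes on day 14, 0 of 5 passed (1.69% of genes), 3 had an unadjusted p under 0.05, and DESeq2 called 0.

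Cxcl12, the ligand of Cxcr4 and Ackr3, differed from the others in that its highest tubule level was on day 14. Tubule cells held 15.1 CPM in the control, 10.4, 30.1 and 24.5 on days 1, 2 and 4, 8.93 and 4.57 on day 7, 16.7 and 17.9 on day 11, with 121 and 83.2 on day 14. Both day 7 libraries were the lowest of all and both day 14 libraries the highest. The day 7 change was -2.05 on the log2 scale (SE 0.33, edgeR adjusted p = 0.0008), day 11 was 2.25 above day 7 (SE 0.30, adjusted p = 0.00018), and day 14 was 2.83 above the control (SE 0.34, adjusted p = 0.0025), a 7.11-fold difference.

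On day 14 the proximal tubule was at 152 and 98.6 CPM of Cxcl12 against 11.04 in the control, and 28.6% and 20.7% of its cells had a Cxcl12 UMI against 4.08%. The UMIs were spread over many cells: 1607 and 1067 cells of the 2 libraries had a UMI and none held more than 11. The cells of the thick ascending limb were at 52.3 and 77.7 against 38.6, and principal cells at 10.9 and 3.13 against 0.433. In proximal tubule cells alone, the day 7 value was not past the threshold (-0.92, adjusted p = 0.271), nor was the step from day 7 to day 11 (0.97, adjusted p = 0.205). The other 14 and 16 alternatives of these 2 results passed, with adjusted p down to 2.7e-13 and 1.5e-16. The first day 7 library was at 25.5 in these cells and the second at 4.31, on both sides of the control.

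Averaged over the days, stroma and endothelium were richer in Cxcl12 per UMI than tubule cells, but on day 14 tubule cells stood above endothelial cells in both libraries. Stromal cells held 93.8 CPM in the control, 75.3, 315 and 273 on days 1, 2 and 4, and 181 and 279 on day 7. Later they were at 71.1 and 0 on day 11 and at 114 and 0 on day 14, from 16 to 63 cells, with the tubule level above in both day 14 libraries. Their within-library difference from tubule cells was 2.75 on the log2 scale over 8 libraries (SE 0.46, edgeR adjusted p = 2.2e-06), higher in 7 of 8. Endothelial cells held 77.1 in the control and 21.0 to 140.3 after injury, higher than tubule cells in 7 of 10 libraries (1.21, SE 0.39, adjusted p = 0.0063). Podocytes reached 189.5 in the first day 14 library (14 UMIs in 37 cells). Phagocytes had little, with at most 19.1, and lay below tubule cells in 10 of 10 libraries (-2.53, SE 0.61, adjusted p = 0.00033). Tubule cells held 81.7% of all Cxcl12 UMIs in the control (78.1% to 84.9%) and 97.9% and 98.7% on day 14. In the second day 7 library they held 28.1% (21.6% to 35.3%), beside 32.0% for 124 stromal cells (25.2% to 39.4%). Of the UMIs of all genes, tubule cells held 27924529 of 29446508 in the control and 10951906 of 16322686 in the second day 7 library. On day 14 they held 20916318 of 21594385 and 18767554 of 19259731.

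**Figure D4:**
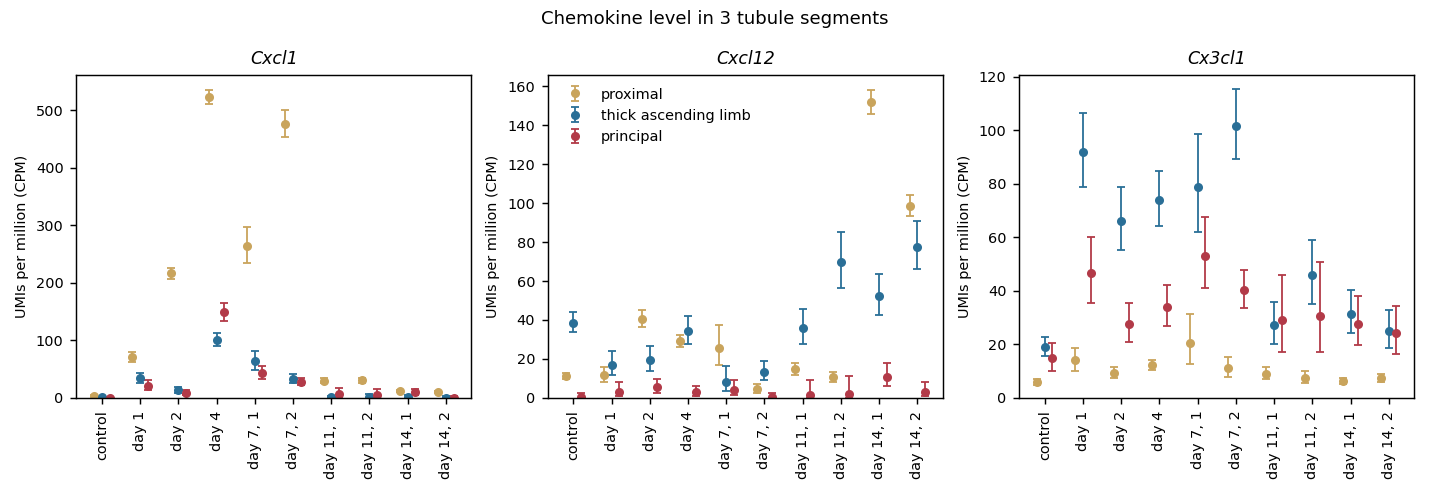
Level of Cxcl1, Cxcl12 and Cx3cl1 (CPM, linear axis from 0) in proximal tubule cells, cells of the thick ascending limb and principal cells, by library; bars are exact 95% Poisson intervals. Proximal Cxcl12 stands at 152 and 98.6 on day 14, and Cx3cl1 is higher in the thick ascending limb than in proximal cells in all 10 libraries.

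Cxcl16, the membrane-bound ligand of Cxcr6 and a scavenger receptor, rose over the first week and stayed higher on day 14. In tubule cells it was 13.9 CPM in the control, 93.9, 119.7 and 219 on days 1, 2 and 4, 178 and 255 on day 7, 35.3 and 39.7 on day 11, with 36.5 and 39.6 on day 14. Every injured library was above the control, and days 11 and 14 overlapped. The log2 changes were 3.20 on day 7 (SE 0.29, edgeR adjusted p = 2.4e-05), -1.76 from day 7 to day 11 (SE 0.21, adjusted p = 7.8e-05) and 1.53 on day 14 (SE 0.27, adjusted p = 0.0114). Without the second day 14 library the last did not pass (1.48, adjusted p = 0.0508, the highest of 15 alternatives, the lowest being 6.5e-06). The gene lies at chr11:70453983-70459984 (GRCm38) and Zmynd15 overlaps it on the other strand. Art3 overlaps Cxcl10 in the same way, and whether counting used the strand is not given in the sources used here.

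In phagocytes Cxcl16 was 288 CPM in the control, 71.5, 131 and 311 on days 1, 2 and 4, 250.3 and 456 on day 7, 327 and 462 on day 11, with 553 and 505 on day 14. Days 1 and 2 were the lowest and day 14 the highest, but none of the tested differences passed (on day 7, 0.02, SE 0.44, edgeR adjusted p = 0.987). Phagocytes were above tubule cells in 9 of 10 libraries (1.94, SE 0.30, adjusted p = 2.7e-07), and endothelial cells below them in 9 of 10 (-1.53, SE 0.33, adjusted p = 7.1e-05). On day 7, when phagocytes were most numerous, they held 31.7% (29.2% to 34.3%) and 34.3% (33.0% to 35.7%) of its UMIs, against 6.01% in the control (4.00% to 8.63%). Phagocytes with a UMI of a C1q gene, which encode complement subunits made by macrophages, were at 255 and 495 on day 7, and those without at 217 and 184.

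Cx3cl1, fractalkine, came mainly from tubule cells by number of UMIs, with 67.8% to 91.0% of them in every library, against at most 16.0% from endothelial cells. The thick ascending limb supplied a median of 31.8% and the proximal tubule 27.2%. Tubule cells also held most UMIs of all genes. They held 13652240 of 16281606 on day 2, where their Cx3cl1 share was lowest, and 18767554 of 19259731 in the second day 14 library, where it was highest. Per UMI, Cx3cl1 levels were higher in the thick ascending limb, endothelium and stroma than in the proximal tubule, except in the stroma of the control. For the stroma of days 11 and 14 this rests on few counts. In the thick ascending limb it was 19.1 CPM in the control, 91.9, 66.2 and 74.1 on days 1, 2 and 4, 78.8 and 102 on day 7, 27.1 and 45.9 on day 11, with 31.5 and 25.1 on day 14. These were above the proximal tubule level in every library. The gene lies at chr8:94772009-94782427 (GRCm38) on the plus strand. Endothelial cells held 57.5 in the control and 62.1 to 130.3 after injury, above the tubule level in 10 of 10 libraries (1.64, SE 0.25, edgeR adjusted p = 1.5e-07). Stromal cells held 5.52 in the control (1 UMI), 138, 321 and 527 on days 1, 2 and 4, 109 and 201 on day 7, and 28.4 to 57.8 later. Those later levels come from 16 to 63 cells with 17310 to 84446 UMIs of all genes. Stromal cells were above tubule cells in 7 of 8 libraries (2.53, SE 0.31, edgeR adjusted p = 2.7e-09). Their day 4 level, from 57 cells, was 95.4-fold the control with a counting interval of 16.4 to 3838. Phagocytes, whose receptor Cx3cr1 binds the ligand, lay below tubule cells in 10 of 10 libraries (-2.41, SE 0.39, adjusted p = 6.0e-07).

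Over all tubule cells Cx3cl1 was 9.99 CPM in the control, 43.7, 21.0 and 24.9 on days 1, 2 and 4, 44.2 and 41.1 on day 7, 13.8 and 15.7 on day 11, with 10.5 and 10.7 on day 14. Day 14 lay close to the control, and day 11 lay between the control and day 7. Day 11 was not tested against the control. The day 7 change was 1.31 on the log2 scale (SE 0.22, edgeR adjusted p = 0.00102) and that from day 7 to day 11 was -0.75 (SE 0.18, adjusted p = 0.0058). In proximal tubule cells alone neither passed (0.43, adjusted p = 0.380, and -0.05, adjusted p = 0.914, while the other 14 and 16 alternatives passed with adjusted p down to 6.7e-05 and 5.7e-05), with 5.80 in the control and 20.6 and 11.2 on day 7.

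Averaged over the days, 5 of 7 chemokines differed between phagocytes and tubule cells (65.1% of 8181 genes did), Cxcl2, Cxcl9 and Cxcl16 higher and Cxcl12 and Cx3cl1 lower. Between endothelial and tubule cells 3 differed (64.7%), Cxcl12 and Cx3cl1 higher and Cxcl16 lower. Between stromal and tubule cells 3 differed (46.6%), Cxcl9, Cxcl12 and Cx3cl1 higher. These shares are near the background, so the counts are no result about the chemokines. The endothelial difference of Cxcl12 did not pass when the 5% of cells with most UMIs were left out (0.82, adjusted p = 0.0684). The stromal difference of Cxcl9 did not pass without the second day 7 library (1.71, adjusted p = 0.384). Each was the highest adjusted p of 17 alternatives, the lowest being 0.00024 and 1.9e-05. Without day 2, endothelial Cxcl10 was below the tubule level (-1.99, adjusted p = 0.0023), and none of the other 16 alternatives passed (adjusted p up to 0.997).

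Havcr1 encodes KIM-1, a receptor that injured proximal tubule cells display. Tubule cells with a Havcr1 UMI numbered 35 in the control, 1195, 257 and 2450 on days 1, 2 and 4, 629 and 683 on day 7, 37 and 27 on day 11, with 53 and 51 on day 14. They were compared with the other tubule cells of their library in a fit chosen after values had been seen, where 5 of 7 chemokines passed against 28.1% of 13876 genes. Cxcl1 in them was 59.96, 453 and 609.7 CPM on days 1, 2 and 4 and 311 and 519 on day 7, against 35.8, 74.9, 126, 52.6 and 36.5 in cells without. It was higher in 9 of 10 libraries (log2 difference 2.29, SE 0.28, edgeR adjusted p = 1.2e-05), also among proximal tubule cells alone (9 of 10).

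Cxcl2 (1.94, SE 0.36, edgeR adjusted p = 0.00061), Cxcl10 (1.502, SE 0.22, adjusted p = 6.0e-05) and Cxcl16 (0.63, SE 0.16, adjusted p = 0.0067) were also higher in Havcr1-positive cells. They were so in 5, 6 and 8 of 10 libraries, and among proximal tubule cells alone in 6, 5 and 8. Cxcl16 did not pass without the first day 7 library (0.51, adjusted p = 0.0621, the highest of 12 alternatives, the lowest being 0.0021). Cx3cl1 was lower in 10 of 10 libraries (-1.21, SE 0.15, adjusted p = 1.7e-05), but among proximal tubule cells alone in 5 of 10. Cells with a Havcr1 UMI had more UMIs in all, for example a median of 2303 against 1743.5 on day 4, and the part of depth and of segment in these differences was not tested. Havcr1 is also 1 of the tubule markers of the gate.

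**Figure D5:**
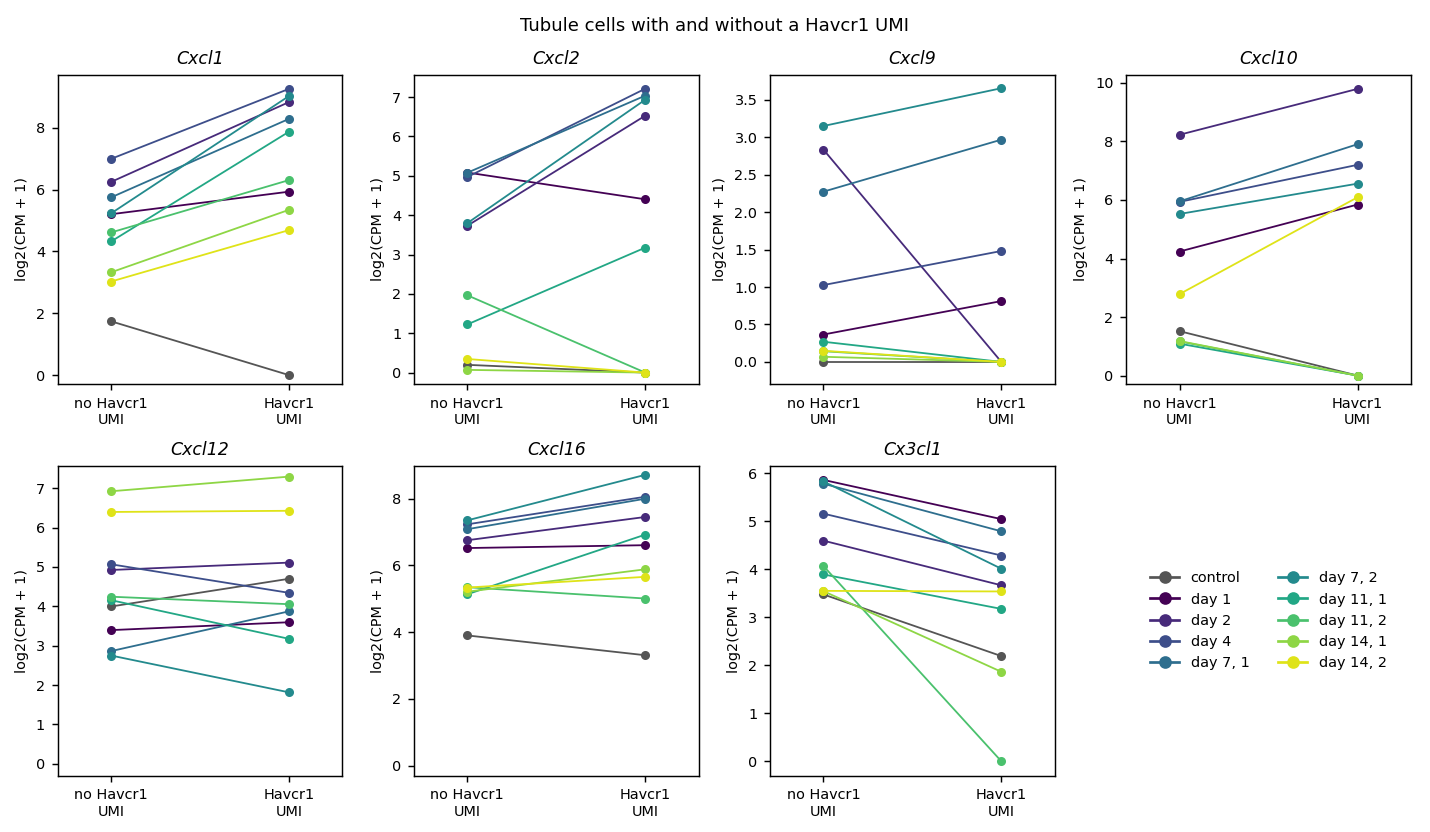
Level of each chemokine, as log2(CPM + 1), in tubule cells without and with a Havcr1 UMI; each line joins both values of 1 library, coloured by library. Cxcl1 is higher with Havcr1 in 9 of 10 libraries and Cx3cl1 is lower in all 10.

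UMIs of Cxcl1 and Cxcl2 were also counted in the same cells. After thinning to 500 UMIs, 68 of the 166 day 4 tubule cells with a Cxcl2 UMI had a Cxcl1 UMI (41.0%), against 10.8% of the others. On day 7 the shares were 34.9% against 5.01% and 35.3% against 4.84%. Among phagocytes the shares were 2.83% against 5.49% on day 4, and 3.66% against 1.85% and 6.70% against 0.753% in the day 7 libraries. A UMI in a droplet can come from released RNA, whose part here was not tested, and cells of 1 library share their source, so these shares are a description.

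The related ligands and regulators moved as follows in tubule cells. Of 9 other CXC ligands 8 had rows in the tables and 6 were tested. Of these 6, 4 were higher on day 7 than in the control (Cxcl3, Cxcl5, Cxcl17 and Pf4), against 16.6% of all genes. Cxcl5, a further Cxcr2 ligand, was listed at 0 in the control and at 27.0 and 13.2 CPM on day 7. Cxcl17, a mucosal chemokine, was at 0.358 in the control and 48.7 and 49.7 on day 7 (log2 change 6.29, SE 0.48, edgeR adjusted p = 9.1e-06). Pf4 is a platelet and macrophage chemokine, and phagocytes held it at 49.2 to 312 CPM. The part of RNA released by phagocytes in the tubule counts of Pf4 was not tested. Of 10 NF-kB feedback and target genes, 8 were higher on day 7, against 16.6% of all genes (median log2 change 2.75, against 0.04 over all genes), led by the adhesion molecule Icam1 (4.61, SE 0.29) and Birc3, an inhibitor of cell death (3.57, SE 0.32). From day 7 to day 11, 9 of 10 fell, Tnfaip3 and Icam1 most, against 21.3% of all genes.

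Interferon response genes were higher on day 7 in 10 of 10 (median 3.85), against the same 16.6% of all genes, led by the guanylate-binding proteins Gbp3 (5.61, SE 0.34) and Gbp2 (5.58, SE 0.55), and 10 of 10 fell to day 11, against 21.3%. On day 14 Gbp3, Igtp and Irf7 were still higher, 3 of 10 against 4.51% of all genes, and of the 10 NF-kB genes Icam1 alone (1.85, SE 0.27). In Havcr1-positive tubule cells 5 of 10 NF-kB genes were higher and Ier3 was lower, and 3 of 10 interferon genes were higher, where 9.46% of all genes were higher and 18.6% lower. Of the enzymes that process the ligands, Adam10 (0.78, SE 0.21, edgeR adjusted p = 0.014) and Dpp4, a peptidase that trims chemokines (1.01, SE 0.20, adjusted p = 0.003), were higher in tubule cells on day 7. Adam17 did not pass (0.53, adjusted p = 0.0696).

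Of the 9 receptors on the list, 8 had rows in the tables and 5 were tested between classes. In phagocytes 4 of the 5, Cx3cr1, Cxcr3, Cxcr4 and Cxcr6, were higher than in tubule cells, where 29.3% of all genes were, and Ackr3 was lower. In endothelial cells Cxcr4 was higher than in tubule cells and Ackr3 lower, 2 of 5, where 30.9% of all genes were higher and 33.8% lower. That count is no result about the receptors. Cxcr2 was at 3940 CPM in day 1 neutrophils and 4306 in those of day 2. Cx3cr1 was at 242 to 707 in phagocytes, and above the tubule level by 7.64 on the log2 scale (SE 0.43, edgeR adjusted p = 2.4e-19). Cxcr6 was at 61.3 to 526 and Cxcr3 at 0 to 251 in lymphoid cells, of which libraries held 9 to 241. Ackr3, a scavenging receptor of Cxcl12, was at 20.7 to 60.9 in tubule cells, above its level in phagocytes (-2.88, SE 0.31, adjusted p = 6.6e-11).

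As a description, the genes with the most similar pattern were found over 46 sums per library and class (Pearson's r of log2(CPM + 1), 13506 genes). The sums share libraries, depth and class, so r carries no test. For Cxcl1 they were Tcp11l1 (0.75), Sirpa (0.70) and Snrnp35 (0.70), and for Cxcl2 the macrophage gene Cd68 (0.90), AF251705 (0.88) and Emilin2 (0.88). For Cxcl9 they were the chemokine Ccl7 (0.82), Ms4a7 (0.80) and Ear2 (0.78). Cxcl10 ran with the interferon-induced genes Eif2ak2 (0.79) and Ifit3 (0.78) and with I830012O16Rik (0.77). For Cxcl12 they were the basement membrane collagen Col4a2 (0.83), Mpdz (0.82) and Klf9 (0.82). Cxcl16 was closest to the lysosomal phospholipase Pla2g15 (0.87), Sirpa (0.86) and Tmem50b (0.84), and Cx3cl1 to Fkbp9, Uaca and Hoxc9 (0.87 each). Cd68 and Ms4a7 are markers of the gate.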

How the data were processed

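The deposited values are counts per gene and cell barcode, 1 table for each of 10 Drop-seq libraries of mouse kidney cortex; they are whole numbers with totals that differ between barcodes and were read as UMIs, which the labels do not state. Per the submitters' processing notes, reads were processed with Bowtie2 2.2.7 and the mm10 build; further steps are not given in the sources used here. The tables hold 7091848 to 31632205 UMIs per library. A barcode was kept if it had 500 or more UMIs from 500 or more genes, with mitochondrial genes making up no more than 50%. The gene minimum took out 5362 and 5424 barcodes on day 11, where the tables reach lower gene numbers, and 0 elsewhere.

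A cell went to the class whose list held most of its marker UMIs, if it had at least 2 different markers of that list and at least 2 times the UMIs of any list of another class. The 16 lists name 141 markers, of which 139 were found. Doublets were not called; an alternative left out the 5% of cells with most UMIs in each library. A level is the UMIs of a gene per 1000000 UMIs of a class in a library (CPM). A count of 0 allows up to 3 counts, and intervals are exact 95% intervals (Poisson, or Clopper-Pearson for shares).

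Counts were summed per library and class, for sums of at least 20 cells, and tested in edgeR 4.0.16 (R 4.3.3) by the quasi-likelihood F test after its filter on low counts and TMM scaling, with Benjamini-Hochberg adjustment over all genes at 0.05. Comparisons of days used 1 term per group over 10 libraries, so the single control takes its spread from the days with 2 libraries. Comparisons of classes kept the library as a block. The SE is the absolute log2 change divided by the square root of F. Neutrophils reached 20 cells in 1 library and were not tested. Alternatives were DESeq2 1.42.0, its size factors, no filter on low counts, a stricter gate of 3 markers and 3 times the UMIs, a mitochondrial limit of 25%, leaving out each library, fewer groups and a replicate block. Python 3.11.15, pandas 2.3.3, numpy 2.4.6 and scipy 1.17.1 were used. The fit was also run on simulated data, the outcome of which is not given here, so no support is drawn from it.

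The chemokines, the gene lists, the comparisons and the rule for named genes were chosen with earlier results of these data known. By that rule all members of the ligand and receptor lists may be named, of other lists the 2 genes of largest change in each direction past the threshold, and per chemokine the 3 genes of most similar pattern. Beyond the rule, Adam17, which did not pass, and all 3 interferon genes higher in tubule cells on day 14 are named.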

Additional observations from a re-analysis of the deposited data

Results flagged for a closer look

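The change of 3 chemokines differed between tubule cells and phagocytes by a test of the difference itself, in a fit added after the values had been seen (quasi-likelihood test of edgeR, adjusted over 5330 genes by Benjamini-Hochberg). On day 7 against the control, the tubule change minus the phagocyte change was 6.74 on the log2 scale for Cxcl1 (SE 1.36, adjusted p = 0.008), 9.80 for Cxcl2 (SE 0.67, adjusted p = 3.7e-06) and 3.17 for Cxcl16 (SE 0.40, adjusted p = 0.00032). From day 7 to day 11 it was -5.59 for Cxcl1 (SE 0.46, adjusted p = 1.5e-05), -6.36 for Cxcl2 (SE 0.43, adjusted p = 3.6e-06) and -2.36 for Cxcl16 (SE 0.26, adjusted p = 0.00011). The control phagocytes are 59 cells of 1 library, and those of day 11 are 120 and 77 cells. With each library of days 7, 11 and 14 left out in turn, the 3 genes passed in both comparisons.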

How the results depend on the processing

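Over 257 alternatives for counts of chemokines past the threshold, 244 stayed within 1.5 times the value given and 13 did not. Over 1578 alternatives for single log2 changes, 0 reversed a called direction, 28 lost a call and 25 gained one. On day 14 against the control in all kept cells, 3 passed, 6 without the filter on low counts, and 1 to 4 with a library left out (1 without the second day 14 library). In phagocytes on day 7, 2 passed, 1 by DESeq2, 1 with the stricter gate, and 1 to 3 with a library left out (1 without the second day 7 library). From day 7 to day 11, phagocytes had 4, 2 by DESeq2, 2 with the stricter gate, 2 with days 7, 11 and 14 alone, and 2 to 4 with a library left out (2 without the second day 7 library). On day 14 phagocytes had 0, 1 with only both groups compared, and 0 to 2 with a library left out: 2 without either day 7 library and 1 without the first day 14 library.

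The deviations of libraries from their day mean correlated at 0.20 for days 7 and 11, 0.03 for days 7 and 14 and -0.08 for days 11 and 14. With 2 libraries per day, these values cannot settle whether replicate numbers pair the libraries. With a replicate block, 6 chemokines passed from day 7 to day 11 in all kept cells, 7 in tubule cells, 3 in phagocytes and 0 in endothelial cells, where the same libraries without the block gave 6, 7, 2 and 0.

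Counts over all genes moved with DESeq2 from 249 to 146 and from 90 to 53 in phagocytes on days 7 and 14. In endothelial cells they moved from 288 to 50 on day 7, from 709 to 157 from day 7 to day 11, and from 135 to 14 on day 14. With the stricter gate phagocytes had 131 and 22 on days 7 and 14. Without the filter, day 14 had 2659 in place of 1474 in all kept cells, 2383 in place of 1304 in tubule cells and 224 in place of 135 in endothelial cells, and the classes 9339, 9174 and 6293 in place of 5323, 5296 and 3813. With only both groups compared, day 14 had 3722, 3386 and 475 in all kept, tubule and endothelial cells. Scaled by UMI totals, day 7 had 8899 in place of 5665 in tubule cells. With days 7, 11 and 14 alone, phagocytes had 210 in place of 326. For the tubule change minus the phagocyte change, leaving out a library gave 141 and 173 in place of 670 from day 7 to day 11 (without the first and the second day 11 library in turn), 381 in place of 573 on day 7 (without the second day 11 library), and 0 to 54 in place of 2 on day 14 (54 without the first or the second day 7 library). Leaving out a library moved the day 14 counts to 358 to 691 and 258 to 2500 in all kept and tubule cells, 44 in phagocytes and 71 to 216 in endothelial cells, and the day 7 count to 150 in endothelial cells. From day 7 to day 11 it gave 4709 in place of 7233 in tubule cells, 115 to 194 in phagocytes and 310 to 467 in endothelial cells.

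Scaled by UMI totals, the share of passing genes that were higher moved from 48.5% to 84.3%, 49.7% to 18.4% and 56.0% to 41.1% in all kept cells for the 3 comparisons of days, from 56.3% to 45.8% in tubule cells on day 14, from 41.8% to 63.6%, 72.1% to 28.4% and 45.6% to 66.3% in phagocytes, and from 41.7% to 58.3% and 55.9% to 28.5% in endothelial cells for the first 2. It moved from 47.8% to 63.6% and 43.0% to 56.0% for endothelial and stromal cells against tubule cells. For tubule cells with a Havcr1 UMI against those without, it moved from 33.7% to 49.4%. Depth limits the rare classes: phagocytes of the control and day 14 hold 41 to 59 cells, where a count of 0 allows up to 3 counts.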

Other observations

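Among the other CXC ligands, Cxcl13, a ligand of Cxcr5 that attracts B cells, was found in endothelial cells. Its level there was 57.5 CPM in the control, 42.1, 235 and 4.68 on days 1, 2 and 4, 0 in both day 7 libraries, 137 and 71.6 on day 11, and 38.9 and 68.2 on day 14. These UMIs came from few cells, 10 in the control and 27 on day 2. Each 0 of day 7 allows up to 3 counts, over 160137 endothelial UMIs in the first library and 460573 in the second, and the test below rests on them. Of the 9 other CXC ligands only 1 was tested in endothelial cells. Of all 8124 genes, 3.55% passed there on day 7 and 8.73% from day 7 to day 11. DESeq2 passed fewer, 50 in place of 288 and 157 in place of 709, and its result for Cxcl13 is not given here. In the quasi-likelihood test of edgeR, endothelial Cxcl13 fell from the control to day 7 (adjusted p = 0.00028) and rose from day 7 to day 11 (adjusted p = 3.1e-06).

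Cxcl14, a chemokine of epithelia and stroma, was found in stromal cells at 0 CPM in the control, 50.2, 250 and 468 on days 1, 2 and 4, 290 and 568 on day 7 and 414 in the first day 11 library. It was at 0 in the other day 11 library and on day 14, which held 16 to 29 stromal cells.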
